A study of Arundinella anomala and Arundinella fluviatilis and Arundinella hirta with 8 samples.

Results

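The 200 genes described here are those whose lowest FPKM over the leaf libraries of 8 C4 grass species was highest, out of 26274 maize gene models (0.761%). FPKM, is the fragment number scaled by sequence length and library size, so levels can be set side by side between genes. The minimum over all 8 libraries chose the members, so their levels, shares and spread are descriptions of the values behind the choice and carry no test. The rule left out GRMZM2G070605, GRMZM2G113033 and GRMZM2G069542, whose minima of 857, 35.8 and 38.6 FPKM would otherwise have placed them 2nd, 38th and 34th. The last members inside the limit had minima of 9.22, 9.19 and 9.06 FPKM, and the first genes outside it had 8.93, 8.91 and 8.90 FPKM, so nothing separates the list from the genes below it.

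All libraries were made from the 3rd leaf of mature wild-type plants kept under 16 h of light and 8 h of dark at 22 °C. There were 5 *Arundinella* species and 3 species of other genera. In falling order of the genes they listed above 0, the *Arundinella* species were *A. pubescens*, *A. anomala*, *A. fluviatilis*, *A. nepalensis* and *A. hirta*, and the others were *Imperata cylindrica*, *Bothriochloa ischaemum* and *Capillipedium parviflorum*. Values given in a row follow this order. Each species had 1 library, so species and library cannot be told apart, and any spread given is that between species. The libraries listed between 8142 and 20607 genes above 0, and their total FPKM lay between 212357 and 829005. Sequencing depth is unknown, because the values are estimates and not counts. Whole leaves were sampled, in which fewer cells of a type and less RNA per cell cannot be told apart.

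A leaf transcriptome is dominated by transcripts for photosynthesis, and beneath these lie transcripts for protein synthesis, protein turnover and primary metabolism that nearly every cell needs. In C4 grasses the photosynthetic transcripts are split between mesophyll and bundle sheath cells. When sequence from several species is assigned to the gene models of 1 other species, a gene is seen in every species only if it is both expressed and similar enough in sequence to be assigned. The files pair the identifiers with no gene names, descriptions or sequences. No member is therefore given a function here, the leaf label could not be checked against marker genes, and only a few identifiers are printed.

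The members ranged from very high levels to levels below the median gene listed above 0 in *A. anomala* and *A. nepalensis*. The word abundant applied to only some of them. In 1116 genes the minimum was at least 1 FPKM and in 184 genes it was at least 10 FPKM. Among the members, 11 had at least 100 FPKM in every library, 134 reached 100 FPKM in at least 1 library, and 10 reached 1000 FPKM in at least 1 library. The limit of the list, at 9.06 FPKM, was below the median of the genes listed above 0 in *A. pubescens* (10.8 FPKM), *A. anomala* (11.4), *A. fluviatilis* (9.31) and *A. nepalensis* (13.5). The median was lower than the limit in *A. hirta* (4.45), as it was in *I. cylindrica* (7.06), *B. ischaemum* (4.06) and *C. parviflorum* (3.55). The lowest-placed member stood 11216th among the genes of *A. anomala*. The lowest member of a library was below the median listed gene in *A. anomala*, at 9.38 FPKM, and in *A. nepalensis*, at 9.68 FPKM, and above it in the other 6.

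The middle of the list was well above the middle of each library. The median member was at 71.4 FPKM in *A. pubescens*, 83.3 in *A. anomala*, 81.1 in *A. fluviatilis*, 62.1 in *A. nepalensis* and 43.0 in *A. hirta*, against 32.1 in *I. cylindrica*, 49.98 in *B. ischaemum* and 36.8 in *C. parviflorum*. The upper quartile of the members lay between 103 and 190 FPKM in *Arundinella* and between 72.1 and 97.9 FPKM in the other genera. The median position of a member was 1660th in *A. anomala*, 2320th in *A. nepalensis* and 776th in *C. parviflorum*, and the other libraries lay between these extremes. The number of members among the 200 highest genes of a library was 15 to 18 in *Arundinella* and 18, 25 and 25 in *I. cylindrica*, *B. ischaemum* and *C. parviflorum*. In no library did 143 of the members reach the 200 highest genes.

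**Figure D1:**
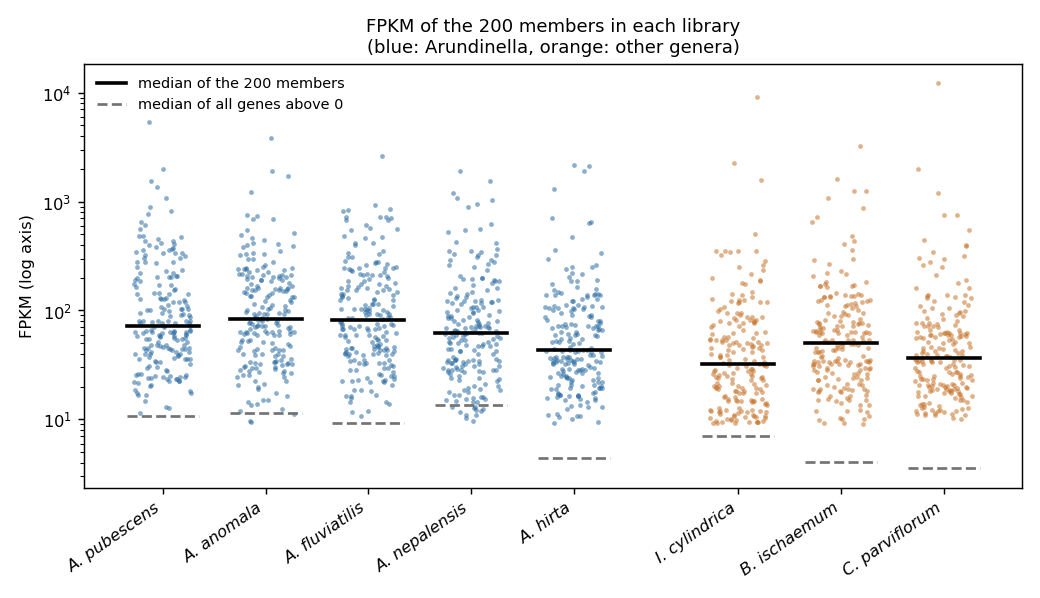
Each point is 1 of the 200 members, with its FPKM on a log axis and the libraries along the x axis, *Arundinella* in blue and other genera in orange. Solid bars mark the median member, from 32.1 FPKM in *I. cylindrica* to 83.3 FPKM in *A. anomala*, and dashed bars the median of all genes above 0, which lies above the lowest members in *A. anomala* and *A. nepalensis*.

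Only 3 members were among the 200 highest genes of every library, and 14 were among the 1000 highest of every library. The first of the 3 was GRMZM2G092311, the member with the highest minimum and the only one with at least 1000 FPKM in every library. Its level was 5357, 1734, 2640, 1205 and 1919 FPKM in *A. pubescens*, *A. anomala*, *A. fluviatilis*, *A. nepalensis* and *A. hirta*, against 9095, 3214 and 12253 FPKM in *I. cylindrica*, *B. ischaemum* and *C. parviflorum*. On the deposited FPKM the values of the genera overlapped, since *A. pubescens* lay above *B. ischaemum*. As shares of each library's total FPKM they did not overlap. The share was 0.172% to 0.646% in *Arundinella* and 2.60%, 1.13% and 5.77% in *I. cylindrica*, *B. ischaemum* and *C. parviflorum*. GRMZM2G092311 was the highest of all genes in *C. parviflorum*, the 4th in *I. cylindrica* and the 45th in *A. nepalensis*, its lowest place.

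GRMZM5G825759 had the next highest minimum and was far more even. Its values were 1547, 1232, 936, 885 and 1306 FPKM in the *Arundinella* species in the same order, and 2268, 1626 and 547 FPKM in the 3 other species. On the deposited FPKM, *C. parviflorum* was the lowest library and *I. cylindrica* the highest, and the *Arundinella* values lay between them. GRMZM5G825759 stood between 21st and 80th in every library. By place, *A. fluviatilis* was the lowest library (80th), and the gene stood 55th in *C. parviflorum*. The third member of this kind, 4th by its minimum, stood between 26th and 174th and ranged from 322 FPKM in *I. cylindrica* to 1209 in *C. parviflorum*.

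The members together held a small part of each library. Their summed FPKM was between 22841 and 37457 in *Arundinella* and between 24416 and 29463 in the other genera, ranges that overlap. As a share of the library's total FPKM this came to 4.52% in *A. pubescens*, 4.34% in *A. anomala*, 4.06% in *A. fluviatilis*, 3.90% in *A. nepalensis* and 7.15% in *A. hirta*, against 7.18% in *I. cylindrica*, 8.58% in *B. ischaemum* and 13.9% in *C. parviflorum*. The share averaged 4.79% ± 1.34 (SD, n = 5) in *Arundinella* and 9.88% ± 3.53 (SD, n = 3) in the other genera, and the 2 groups did not overlap, with *A. hirta* just below *I. cylindrica*. The 4 libraries with the smallest total FPKM were the 4 with the largest shares. The members' summed FPKM averaged 31093 in *Arundinella* and 26323 in the other genera, and the total FPKM averaged 692972 and 282126. On average, the other genera thus had a higher share, a smaller total and a smaller summed FPKM of the members. By library the summed FPKM was mixed, since *C. parviflorum* (29463) lay above *A. hirta* (22841) and *A. nepalensis* (27353). The part that the extent of listing plays in the share was not tested.

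A single gene made up much of the share in 2 libraries. GRMZM2G092311 was 4.40% to 14.3% of the members' FPKM in *Arundinella*, against 36.2% in *I. cylindrica*, 13.2% in *B. ischaemum* and 41.6% in *C. parviflorum*. Without it the other 199 members held 3.87%, 4.13%, 3.73%, 3.73% and 6.55% of the total in the *Arundinella* species and 4.58%, 7.45% and 8.10% in *I. cylindrica*, *B. ischaemum* and *C. parviflorum*. The groups then overlapped, with *A. hirta* above *I. cylindrica*. The 10 highest members of a library carried 29.2% to 46.8% of the members' FPKM in *Arundinella* and 61.9%, 47.4% and 64.8% in the 3 other species. For scale, the 200 highest genes of each library held 29.3% to 51.1% of its total in *Arundinella* and 56.8% to 61.0% in the other genera.

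**Figure D2:**
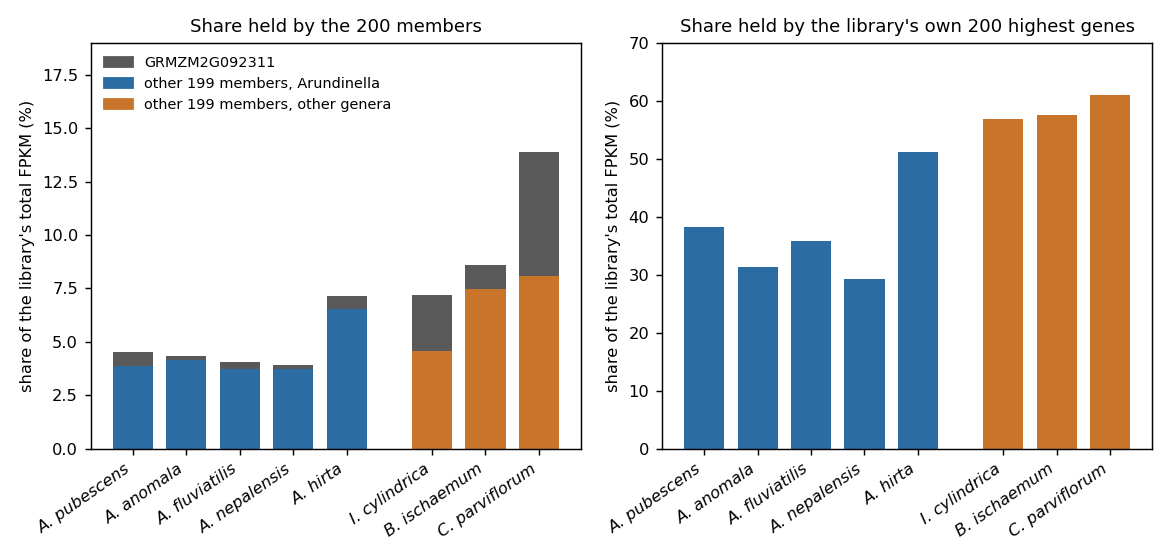
Left, the percentage of each library's total FPKM held by the 200 members, with GRMZM2G092311 in grey on top of the other 199 members, and right, the percentage held by the 200 highest genes of that library. The members' share is 3.90% to 7.15% in *Arundinella* and 7.18% to 13.9% in the other genera, where the library's own highest genes hold 56.8% to 61.0%.

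The spread of the members among species was wide for most of them. The highest library exceeded the lowest by 7.19-fold in the median member, by less than 3-fold in 14 members and by 10-fold or more in 67. The SD of log2(FPKM + 1) over the 8 libraries had a median of 0.94 and quartiles of 0.72 and 1.24. The median was 1.23 for 1383 other genes above 0 in all 8 libraries, which do not include the 3 genes left out by the rule, and 1.83 for all 18780 genes tested below. A minimum required in every library bounds the values of a gene from below, so the spread of the members is not independent of their choice. Its part in their smaller spread was not tested. The 11 members with minima of at least 100 FPKM had a median SD of 0.63, the 104 with minima from 10 to 20 FPKM had one of 0.997, and the 19 with minima under 10 FPKM had one of 0.88.

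On the deposited FPKM, the steadiest member was GRMZM5G886709. It was at 16.7, 20.7, 20.9, 9.68 and 15.8 FPKM in *A. pubescens*, *A. anomala*, *A. fluviatilis*, *A. nepalensis* and *A. hirta*. In *I. cylindrica*, *B. ischaemum* and *C. parviflorum* it was at 10.9, 15.8 and 17.3 FPKM. Its highest value was 2.16 times its lowest (SD 0.37 on the log2 scale). Next came GRMZM2G477609, at 33.4, 28.5, 32.7, 25.04 and 33.6 FPKM in *Arundinella* and 21.5, 13.5 and 23.2 FPKM in the other genera (SD 0.43). On the deposited FPKM, the *Arundinella* values of this second gene were all above the others, while those of the first overlapped them. This direction depended on the scale. The log2 difference of GRMZM2G477609, *Arundinella* minus other genera, was 0.66 as deposited. It was −0.54 with each library scaled to the same total FPKM and −1.27 under quantile normalization. Both were weakly listed, with minima in 185th and 125th place, and not among the highly expressed members. Library totals ran from 212357 to 829005 FPKM, and the members were not ranked by spread with these totals made equal.

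At the other end, GRMZM2G033208 had the largest spread (SD 2.50). It was at 402, 201, 835, 552 and 10.4 FPKM in the *Arundinella* species and at 285, 33.4 and 10.9 FPKM in the other genera. *A. hirta* and *C. parviflorum* shared the low level, and *I. cylindrica* lay with the other *Arundinella* species. The next largest spread (SD 2.33) belonged to a line that is named by a genomic clone and not by a gene. That line was at 436, 690, 720, 426 and 630 FPKM in *Arundinella* and at 14.8, 77.2 and 19.1 FPKM in the 3 other species, with no overlap.

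Different members led in different libraries. GRMZM2G092311 was the highest member in *A. fluviatilis*, *A. pubescens* and the 3 other genera. GRMZM2G419891 led in *A. hirta* at 2178 FPKM and in *A. nepalensis* at 1906 FPKM. It was at 1366, 403 and 401 FPKM in *A. pubescens*, *A. anomala* and *A. fluviatilis*, and at 55.4, 1248 and 2011 FPKM in *I. cylindrica*, *B. ischaemum* and *C. parviflorum*, so that *I. cylindrica* alone was far below the rest. GRMZM2G022958 led in *A. anomala* at 3857 FPKM. It was at 1987, 605, 957 and 204 FPKM in *A. pubescens*, *A. fluviatilis*, *A. nepalensis* and *A. hirta*, and at 509, 406 and 49.1 FPKM in the other genera, where *C. parviflorum* was lowest.

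**Figure D3:**
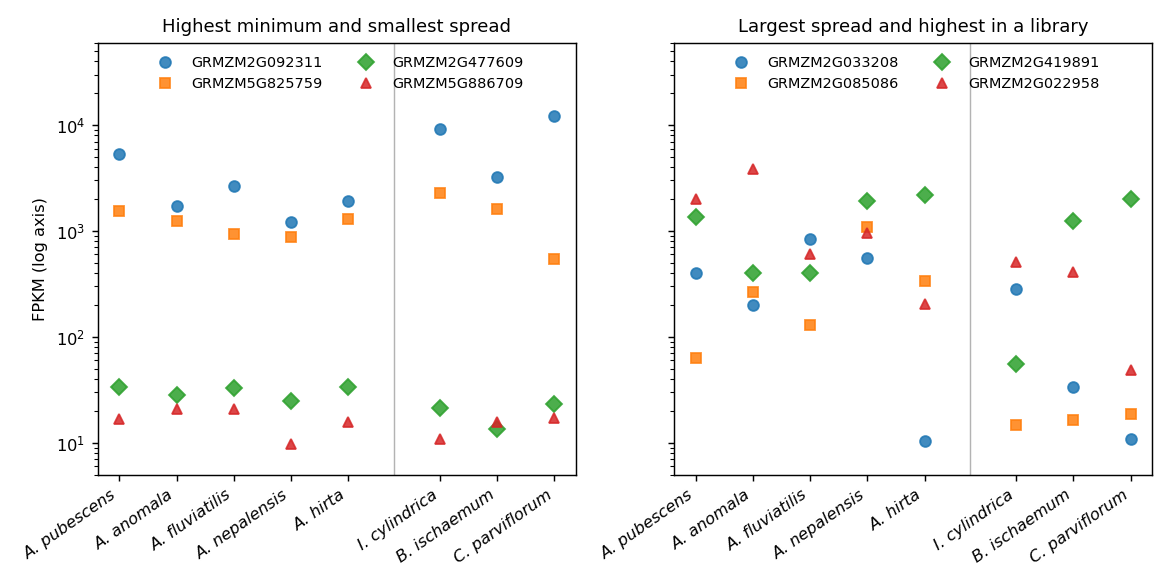
FPKM on a log axis in each library, *Arundinella* left of the grey line. The left panel holds the 2 members with the highest minimum and the 2 steadiest on the deposited FPKM. The right panel holds 4 members with a wide spread or the highest level in a library. GRMZM5G886709 stays between 9.68 and 20.9 FPKM, while GRMZM2G033208 runs from 10.4 to 835 FPKM.

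The lowest value of a member, which decides its place on the list, came most often from the libraries that listed few genes. It lay in *I. cylindrica* for 64 members, in *C. parviflorum* for 39, in *B. ischaemum* for 26, in *A. nepalensis* for 25, in *A. hirta* for 22, and in *A. anomala*, *A. fluviatilis* and *A. pubescens* for 10, 7 and 7. The highest value lay in an *Arundinella* library for 164 members and in another genus for 36. This distribution depended on the scale. With each library's values taken as a share of its total FPKM, the highest value lay in *C. parviflorum* for 64 members, in *B. ischaemum* for 43 and in *A. hirta* for 39, and the lowest lay most often in *A. nepalensis* (47) and *I. cylindrica* (38).

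The list depended strongly on 2 libraries. With *I. cylindrica* left out, 89 of the 200 members were still among the 200 highest minima, and with *C. parviflorum* left out 104 were. Leaving out *A. hirta*, *B. ischaemum* or *A. nepalensis* kept 136, 143 and 165, and leaving out *A. anomala*, *A. pubescens* or *A. fluviatilis* kept 196, 195 and 194. With the second lowest value in place of the minimum, 65 members were kept, and the 200 genes then chosen held a median of 14.9% of a library's total, against 5.83% for the members.

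**Figure D4:**
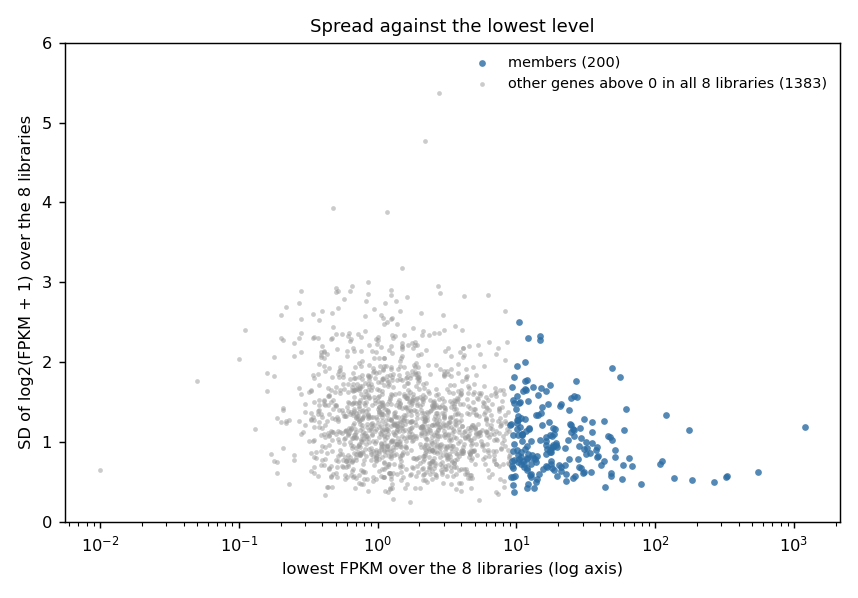
The lowest FPKM over the 8 libraries (log axis) against the SD of log2(FPKM + 1) over the 8 libraries, for the 200 members in blue and 1383 other genes above 0 in all libraries in grey, without the 3 genes the rule left out. The members run from an SD of 0.37 to 2.50, and no gap separates them from the genes to their left.

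What the rule did not use was how a gene's value divided among its protein models, since models were summed. The members comprised 324 lines, and 90 members (45.0%) had more than 1 line. The corresponding share was 38.3% for the other genes above 0 in all 8 libraries and 27.8% for all genes, but a gene with more lines has more values to sum, so this share is not independent of the choice. Among the 90, the model with the highest FPKM was the same in all 8 libraries for 42 and changed between libraries for 48 (53.3%). It changed for 75.8% of the other multi-line genes above 0 in all libraries, a difference that was not tested. In 25 of the 90 members no single line was above 0 in every library. With the highest model of each library in place of the sum, 22 of these 25 were still among the 200 highest minima. A total of 156 members had a single line at or above the limit of 9.06 FPKM in every library.

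GRMZM2G092311 was one of the members whose highest model changed between libraries. Its model P01 carried the whole value in *A. anomala*, *A. hirta* and *A. pubescens* (1734, 1919 and 5357 FPKM), where P03 was listed at 0. P03 carried the whole 9095 FPKM of *I. cylindrica*, where P01 was listed at 0. Both were present in *A. fluviatilis* (1072 FPKM for P01 and 1568 for P03), *A. nepalensis* (888 and 317), *B. ischaemum* (1479 and 1735) and *C. parviflorum* (3381 and 8871). In GRMZM2G033208, P03 carried all or nearly all of the value in *A. anomala* (200 FPKM), *A. fluviatilis* (832), *A. nepalensis* (552), *A. pubescens* (402) and *I. cylindrica* (285). It was listed at 0 in *B. ischaemum* and *C. parviflorum*, where P02 carried 33.4 and 10.9 FPKM, and in *A. hirta* the models were nearly equal, at 5.28 FPKM for P03 and 5.15 for P02. The 3 lowest libraries of that gene were thus the 3 in which P03 did not carry all or nearly all of the value. RSEM, the program named for these values, divides fragments among similar sequences by estimate, and whether these changes of model are in the RNA or in the division of fragments was not tested.

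Clone names limited the reading of 10 members. These lines are named by a genomic clone, which makes 5% of the members, against 872 genes or 3.32% of the whole table. For 8 of the 10, the deposited cross-reference of identifiers holds more than 1 gene model on the same clone, and the clone of the second most variable member holds 15. Such a line cannot be tied to 1 gene, and which of a clone's gene models it stands for is not given. Of the 190 members named by a gene model, 188 occur in the cross-reference.

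Across the members, the order of expression was shared only in part between species. Spearman's rho over the 200 members averaged 0.565 (range 0.423 to 0.762) for the 10 pairs within *Arundinella*, 0.445 (0.331 to 0.584) for the 15 pairs between *Arundinella* and other genera, and 0.438 (0.383 to 0.524) for the 3 pairs among the other genera. These are correlations across genes chosen on the same values, each library enters 7 pairs, and they are given as descriptions. *A. anomala* and *A. pubescens* were the most alike pair. *A. nepalensis* and *C. parviflorum* were the least alike, and the highest rho of *A. hirta* was with *B. ischaemum* (0.584), followed by *A. anomala* (0.566).

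The labels allow 1 comparison with more than 1 library on each side, that of *Arundinella* (n = 5) with the other genera (n = 3). It was fitted over the 18780 genes that reached 1 FPKM in 3 or more libraries. The rule did not use this difference, but it used the values behind it and removed every gene listed at 0 in any library, so the members' counts are read only beside those of all genes. No member passed (0 of 200; limma, adjusted p under 0.05), where 1.83% of all genes tested did. At an unadjusted p under 0.05 there were 4 members, all higher in *Arundinella*, where 29.1% of all genes were past that level and 28.7% in that direction. On the deposited FPKM, the *Arundinella* values lay wholly above the others in 20 members (10%), against 12.7% of all genes. They lay wholly below the others in 1 member (0.5%), against 0.208% of all genes. Overlap was not counted on other scales. The first share is near its background and the second rests on a single member, so neither is a result about the members.

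The direction of the members in this comparison depended on the scale. On the deposited FPKM, 161 of the 200 members were fitted higher in *Arundinella* and 39 lower, with a median log2 difference of 0.68, where the median of all genes tested was 1.74 and 91.4% were fitted higher. With each library scaled to the same total FPKM, 55 members were fitted higher and 145 lower, and the median was −0.54, where that of all genes was 1.16. This scaling moved every member by nearly the same amount, −1.25 to −1.16 log2 units, which the library totals set, so the change in these counts says nothing about single members. Under quantile normalization 32 were higher and 168 lower, with medians of −0.92 for the members and −0.16 for all genes, and under median-of-ratios scaling the medians were −0.41 and 1.09. In each of these fits the members' median lay below that of all genes. The all-gene median includes genes listed at 0 in the other genera, which cannot be members, and their part in it was not tested.

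**Figure D5:**
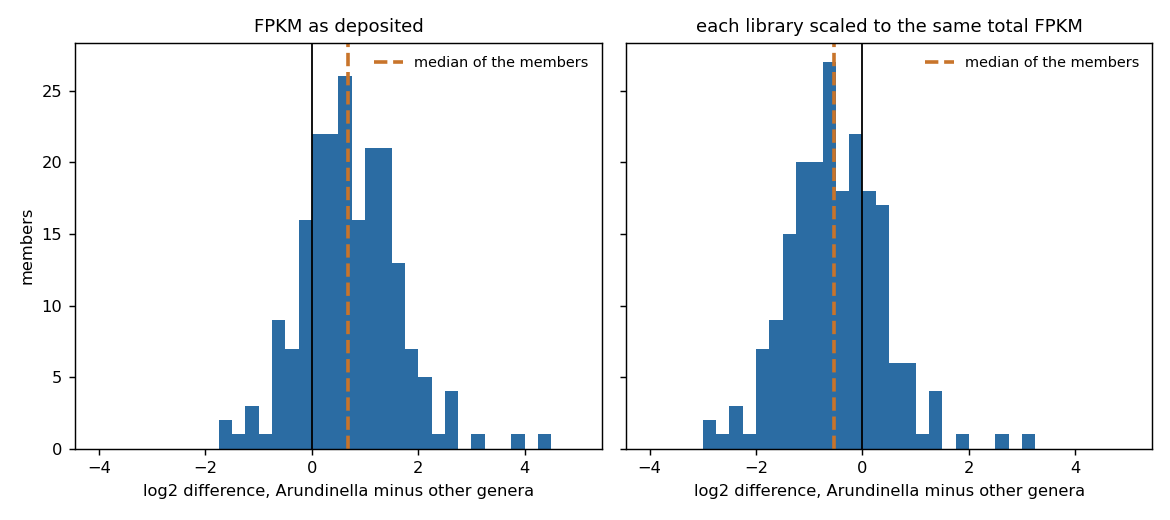
Number of members by fitted log2 difference, *Arundinella* minus other genera, on FPKM as deposited (left) and with each library scaled to the same total FPKM (right). The members' median, the dashed line, is 0.68 on the left and −0.54 on the right, a shift of nearly the same size in every member.

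The largest fitted differences did not pass. The clone-named line described above averaged 580 ± 140 FPKM in *Arundinella* (SD, n = 5) and 37.0 ± 34.9 FPKM in the other genera (SD, n = 3), a log2 difference of 4.28 ± 1.26 (SE; limma, adjusted p = 0.0934; 0.0161 to 0.353 over 16 alternatives). GRMZM2G085086 was at 63.0, 263, 130, 1082 and 337 FPKM in *Arundinella* and at 14.7, 16.4 and 18.9 FPKM in the other genera. On the deposited FPKM, all of its *Arundinella* values were above the others, and its log2 difference was 3.78 ± 1.33 (SE; limma, adjusted p = 0.0995). The difference was 2.58 with each library scaled to the same total FPKM, a scale on which its overlap was not examined. In the other direction, GRMZM2G007683 was at 24.7, 43.7, 22.6, 35.3 and 41.4 FPKM in *Arundinella* and at 71.7, 106 and 139 FPKM in *I. cylindrica*, *B. ischaemum* and *C. parviflorum*. On the deposited FPKM, it was the 1 member whose *Arundinella* values were all below the others, with a log2 difference of −1.62 ± 1.17 (SE; limma, adjusted p = 0.313). GRMZM2G092311 had a difference of −1.66 ± 1.26 (SE; limma, adjusted p = 0.335). As shares of each library's total FPKM, its *Arundinella* values were also all below the others, at most 0.646% against at least 1.13%. These 4 differences kept their sign in all 16 alternatives.

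Without *A. hirta*, 4 members passed, all higher in *Arundinella* (limma, adjusted p from 0.0256 to 0.0464), among them the clone-named line and GRMZM2G085086. In that fit 33.4% of all genes tested passed, against 4 of the 200 members. That background includes genes listed at 0 in the other genera, which cannot be members, and their part in it was not tested. The lower share is therefore not a result about the members.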

How the data were processed

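Leaf RNA of 8 grass species was sequenced, 1 library per species, from total RNA with an Illumina TruSeq kit per the labels' protocols. The deposited values are FPKM, 1 table for all libraries; the submitters' processing notes name RSEM. Version, aligner and reference sequences: not given in the sources used here. The table's 36698 lines, mostly maize protein models, were added up to 26274 genes. A deposited cross-reference holds identifiers only, so word lists on gene descriptions could not be run, and with no names few identifiers are printed: those with the 2 highest minima, the 2 smallest and 2 largest SDs, the highest in a library, the 2 largest differences each way, and those the rule left out. FPKM are estimates from which whole reads were not recovered, so depth is unknown and intervals cannot be given.

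The genus comparison used limma 3.58.1 (R 4.3.3) on log2(FPKM + 1), eBayes with a trend, two-sided, Benjamini-Hochberg adjustment at 0.05 over all genes tested; this scale understates changes of low genes. Libraries were matched by column name, and replicates, numbered in accession order, pair nothing. The fit was first tested on simulated data. P-values measure only the spread between these species, which share ancestry within *Arundinella*. Alternatives were other pseudocounts, filters and scalings, no trend, the highest protein model, other list lengths, the second lowest value and leaving out each library. The members and lists were chosen with earlier results of these data known. Python 3.11.15, pandas 2.3.3, numpy 2.4.6 and matplotlib 3.10.9 were used.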

Additional observations from a re-analysis of the deposited data

Results flagged for a closer look

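Among the 5 *Arundinella* libraries, 1 library lay far from the other 4 in 5 of 19 measures examined. Chance flags about 1 in 20 of independent measures. Several measures here depend on each other, and the single genes were picked for extreme values in these same data. The count therefore cannot be set against chance. *A. hirta* held the largest share of its total FPKM in the members, 7.15%, and 6.55% without GRMZM2G092311, against at most 4.52% and 4.13% in the other 4. Its total FPKM of 319415 and its 10697 genes above 0 were the lowest, against at least 701722 and 18023. GRMZM2G085086 was at 1082 FPKM in *A. nepalensis*, against at most 337 in the other 4. The cause of these gaps was not tested.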

How the results depend on the processing

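The median share of the total held by the members (5.83%) was 5.62% to 7.68% with 1 library left out, and 14.9% with the second lowest value in place of the minimum. The median SD (0.94) was 0.76 to 0.94 with 1 library left out and 2.34 with the second lowest value. Membership kept 89 to 196 genes with 1 library left out (104 without *C. parviflorum*, 89 without *I. cylindrica*) and 65 with the second lowest value; it kept 188 with the highest protein model, 162 after scaling to the same total and 136 after quantile normalization. Other list lengths and pseudocounts moved share and SD by less than their spread. Genes called between *Arundinella* and the other genera (343) numbered 799 with a pseudocount of 0.1, 0 with 10 (limma), 20 under quantile normalization, 152 under median-of-ratios scaling, 621 without the trend, 170 with each library scaled to the same total (chosen after seeing the data), and with 1 library left out 21 (*C. parviflorum*), 81 (*B. ischaemum*), 93 (*A. anomala*), 94 (*A. fluviatilis*), 97 (*A. pubescens*), 343 (*A. nepalensis*), 623 (*I. cylindrica*) and 6105 (*A. hirta*). Members called (0) numbered 1 with a pseudocount of 0.1 and without the trend, and 0 to 4 with 1 library left out. The members' median log2 difference (0.68) was −0.92 under quantile normalization, −0.41 under median-of-ratios scaling and −0.54 with equal totals, and 0.52 to 0.75 with 1 library left out. The cause of these changes was not tested. No paired analysis was possible because replicate numbers only follow accession order. Unknown depth limits what a value near the list's limit means.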
